A study of Mus musculus with 83 samples.

Results

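The transcripts of 8 transcription factors of the trophectoderm were followed in single preimplantation mouse embryos, namely Tead4, Tfap2c, Klf5, Gata3, Gata2, Cdx2, Elf3 and Eomes. The members were chosen by symbol, and all 8 were found among the 23845 genes of the embryo mRNA table. The table held 77 single embryos in 4 groups. At the 4-cell stage there were 16 controls and 18 embryos of heat-exposed fathers, and among morulae there were 22 and 21. Control embryos came from sperm of males kept under sham conditions at a constant 21 °C, and heat embryos from sperm of males kept for 7 days on a daily cycle of 8 h at 35 °C and 16 h at 25 °C. The males were adults of 8 to 12 weeks, assigned to the groups at random. No label gave the father, mother, litter or strain of an embryo, so embryos of a group may be related. The p-values take single embryos as independent and set each difference against the spread between them. They can be too small where embryos share parents.

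The trophectoderm is the outer epithelium of the blastocyst and the first lineage set apart in the mouse embryo, and it later gives rise to the trophoblast of the placenta. In outer cells the DNA-binding factor TEAD4 works with the coactivators YAP1 and WWTR1, which the kinases LATS1 and LATS2 of the Hippo pathway keep out of the nucleus in inner cells. TEAD4 and its coactivators drive Cdx2 and, in part independently of Cdx2, Gata3. CDX2 represses inner cell mass genes and is needed to keep the trophectoderm, GATA2 and GATA3 act together in trophoblast, and EOMES is needed in trophoblast stem cells. The AP-2 factor TFAP2C and the Krüppel-like factor KLF5 are present before the lineages part and are both needed for a normal trophectoderm in the mouse, and ELF3 is an ETS factor of epithelia.

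The 3 promoters printed here are those of Cdx2, Gata3 and Elf3, the members whose transcripts rose from the 4-cell stage to the morula and then varied together between morulae. They are the 250 bases before the annotated start site, from the RefSeq promoter table of GRCm38.p6, written 5′ to 3′ on the minus strand, at chr5:147307250-147307499 for Cdx2, chr2:9878601-9878850 for Gata3 and chr1:135258473-135258722 for Elf3. The Gata3 start site lies inside the annotated span of the gene (chr2:9857078-9887953), and the others lie at the 5′ end of Cdx2 (chr5:147300900-147307249) and Elf3 (chr1:135253574-135258472). Capitals mark matches to a searched motif.
Cdx2: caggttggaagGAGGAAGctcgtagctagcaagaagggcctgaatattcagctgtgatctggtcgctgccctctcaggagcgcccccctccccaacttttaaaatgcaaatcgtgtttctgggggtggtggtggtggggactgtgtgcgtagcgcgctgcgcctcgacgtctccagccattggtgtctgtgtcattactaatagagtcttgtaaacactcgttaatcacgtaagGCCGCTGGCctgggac
Gata3: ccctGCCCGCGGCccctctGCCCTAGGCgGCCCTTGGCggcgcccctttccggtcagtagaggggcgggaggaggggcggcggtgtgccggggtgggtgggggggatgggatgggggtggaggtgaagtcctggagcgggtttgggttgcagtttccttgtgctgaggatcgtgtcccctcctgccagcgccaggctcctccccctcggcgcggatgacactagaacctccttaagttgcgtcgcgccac
Elf3: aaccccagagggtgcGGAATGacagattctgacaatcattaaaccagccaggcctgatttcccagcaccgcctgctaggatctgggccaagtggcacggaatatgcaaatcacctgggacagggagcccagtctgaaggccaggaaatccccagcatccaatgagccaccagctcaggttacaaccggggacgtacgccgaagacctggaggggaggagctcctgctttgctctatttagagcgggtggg
Motifs of 7 families were searched on both strands of the table's windows, which run from 250 bases before to 50 after the start. The AP-2 motif GCCNNNGGC, to which TFAP2C can bind, was found once in the Cdx2 window, starting at position -16 from the start site, and at 3 places in the Gata3 window, at -246, -231 and -221. It was held by 16.6% of all 32851 windows in the table. The TEAD motif GGAATG was found once in the Elf3 window, at -235, and was held by 14.7% of windows. The ETS motif GAGGAAG was found in the Cdx2 window at -239, and this or CAGGAAG was held by 24.8% of windows. The GATA motifs AGATAA and TGATAA (18.6% of windows), the Krüppel-like motif GGGTGTG (7.95%), the CDX motifs TTTATGG and TTTATTG (7.20%) and the T-box motif GGTGTGA (3.98%) had no match in these 3 windows. A match is a description of the letters only. Of the other members, Gata2 and Eomes had windows in the table, and Tead4, Tfap2c and Klf5 are named without one.

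Levels were deposited as TPM, a length-corrected share of each library's RNA, so levels can be set beside each other between genes, but the number of reads behind a value is unknown. The number of genes above 0 TPM, called detected genes here, ranged from 6303 to 10274 in 4-cell embryos and from 6480 to 12506 in morulae, with medians of 8259.5 in control and 8996.5 in heat 4-cell embryos and of 10774 in control and 11283 in heat morulae. Control morula 15, with 6480 detected genes, stood apart from the other morulae. Control morulae 19, 21 and 22 and heat morula 21 stood apart in Cdx2, with more than 200 TPM each, and results that rest on them are given with and without them. For the labelled stages, the summed level of 4 morula markers was at most 109.67 TPM in any 4-cell embryo and at least 332.2 TPM in any morula. The sum of 4 markers of the 4-cell stage overlapped, down to 285.57 TPM in 4-cell embryos and up to 636.31 TPM in morulae. Its medians were 1368 TPM in control and 1573 TPM in heat 4-cell embryos, and 136 and 195 TPM in morulae. Of 10 markers of cumulus and granulosa cells, 9 had a median of 0 in every group and the other, Amhr2, had medians between 12.5 and 61.4 TPM. All 6 sperm markers had a median of 0. A library is the RNA of a whole embryo, so more cells that express a gene and more RNA per cell cannot be told apart.

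**Figure D1:**
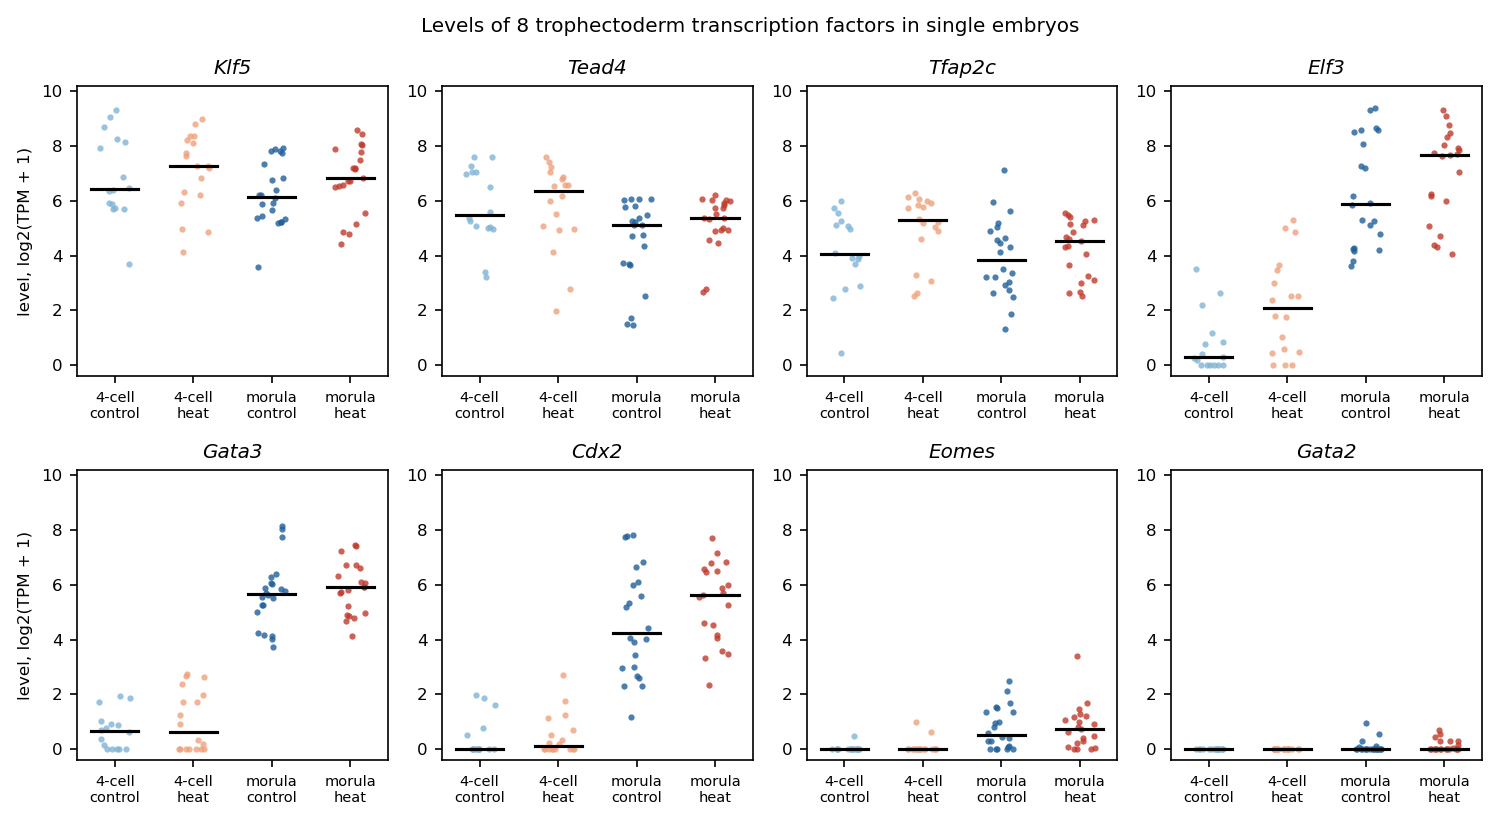
Level of each of the 8 members in every embryo, as log2(TPM + 1), by group; each point is 1 embryo and each line the group's median. Klf5, Tead4 and Tfap2c are present at both stages, Gata3, Cdx2 and Elf3 have medians of at most 3.32 TPM in 4-cell embryos and of at least 18.1 TPM in morulae, and Eomes and Gata2 stay low throughout.

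Tead4, Tfap2c and Klf5 were already present in every 4-cell embryo, whereas Gata3, Cdx2 and Elf3 appeared in bulk by the morula stage. The median of Gata3 went from 0.59 to 49.6 TPM in control embryos and from 0.575 to 59.7 TPM in heat embryos, and Gata3, Cdx2 and Elf3 rose in both arms. Tead4, the DNA-binding partner of YAP1, fell in control embryos. Tfap2c and Klf5 did not pass the test between stages in either arm, and Gata2 and Eomes were under the filter on low values.

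Klf5 had the highest median of the members at the 4-cell stage. Its level in 4-cell control embryos ran from 11.96 TPM through a median of 85.8 TPM to 647.52 TPM. In 4-cell heat embryos it ran from 16.73 through 153 to 510.56 TPM. The highest embryo had 54.1 times the level of the lowest in the control and 30.5 times in the heat group, and the groups overlapped over nearly their whole ranges. In morulae Klf5 ran from 10.87 through 70.0 to 240.63 TPM in control and from 20.46 through 113 to 382.23 TPM in heat embryos. No morula of either arm reached the highest 4-cell embryo, and the stages overlapped broadly.

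Tead4 followed at the 4-cell stage, below Klf5 in 15 of 16 control and 16 of 18 heat embryos. It ran from 8.3 through 43.6 to 195.63 TPM in 4-cell control embryos and from 2.91 through 81.2 to 191.46 TPM in 4-cell heat embryos. In control morulae it ran from 1.75 through 33.7 to 66.97 TPM, and in heat morulae from 5.33 through 40.2 to 73.53 TPM. The stages overlapped at the low end, and no morula reached the highest 4-cell embryo.

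Tfap2c was lower again, below Tead4 in 15 of 16 control and 15 of 18 heat 4-cell embryos. It ran from 0.35 through 15.5 to 62.75 TPM in 4-cell control and from 4.76 through 38.1 to 77.08 TPM in 4-cell heat embryos. In control morulae it ran from 1.47 through 13.6 to 139.94 TPM, and in heat morulae from 4.72 through 22.2 to 45.98 TPM. The highest value came from control morula 19, and the other 21 control morulae were at 61.94 TPM or less.

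Gata3 had the cleanest separation of the stages. It was held by 11 of the 16 controls and 11 of the 18 heat embryos with 4 cells, at medians of 0.59 and 0.575 TPM and at most 2.83 and 5.62 TPM. In control morulae it ran from 12.29 through 49.6 to 280.82 TPM and in heat morulae from 16.43 through 59.7 to 176.73 TPM. In both arms every morula was above every 4-cell embryo. Among all genes tested the morulae stood wholly above the 4-cell embryos for 0.7% in the control arm and 0.605% in the heat arm. Gata3 was among these genes only through its morulae, which alone took it past the filter on low values.

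Cdx2 was detected in 5 of the 16 controls and 9 of the 18 heat embryos with 4 cells, with highest values of 2.94 and 5.55 TPM and medians of 0 and 0.07 TPM. In control morulae it ran from 1.25 through 18.1 to 225.9 TPM and in heat morulae from 4.04 through 48.2 to 210.37 TPM. All 43 morulae were above 0, and 1 control and 1 heat morula were at or below the highest 4-cell embryo of their arm. The highest control morula had 181 times the level of the lowest, the widest ratio among the 6 members that were above 0 in every control morula.

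Elf3 was held by 10 of the 16 control and by 15 of the 18 heat 4-cell embryos, at medians of 0.225 and 3.32 TPM and at most 10.51 and 38.5 TPM. It ran from 11.18 through 58.6 to 678.7 TPM in control morulae and from 15.88 through 202 to 633.12 TPM in heat morulae. The stages narrowly missed overlapping in the control arm, at 10.51 against 11.18 TPM, whereas in the heat arm 16 of 21 morulae were above the highest 4-cell embryo. Among all genes tested in the control arm, 0.7% had all morulae above all 4-cell embryos. Elf3 was among the genes tested there only through its morulae. Elf3 and Klf5 were the most abundant members in morulae and their order was not fixed, as Klf5 was the higher of the pair in 14 of 22 control morulae and Elf3 in 10 of 21 heat morulae.

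Eomes and Gata2 were scarce. Among 4-cell embryos, 1 control and 2 of the heat group held Eomes. It was above 0 in 17 of 22 control morulae, with a median of 0.44 and a highest value of 4.59 TPM, and in 18 of 21 heat morulae, with a median of 0.68 and a highest value of 9.53 TPM. Gata2 was listed at 0 in all 34 4-cell embryos, and in morulae it was detected in 5 of the 22 controls and 8 of the 21 heat embryos, at no more than 0.94 TPM. A listed 0 can be a failed estimate, since Polr2a, a subunit of RNA polymerase II, was at 0 in 1 of the 77 embryos and the basal factor Tbp in 2. With no filter on low values, Eomes was 0.74 higher in morulae in control (adjusted p = 0.0028 with limma) and 0.72 in heat embryos (adjusted p = 0.004), under the size of 1 asked of a call, and Gata2 was 0.09 and 0.13 higher (adjusted p = 0.267 and 0.0423). Counting members at 1 TPM or more, every morula held 6 or 7 of the 8, and 4-cell embryos held between 2 and 6. Morulae also had more detected genes among all genes, with medians of 10774 and 11283 against 8259.5 and 8996.5, so the count is no mark of the members.

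The stage comparison was tested with limma on log2(TPM + 1) within each arm, over genes at 1 TPM or more in at least 50% of the embryos of a group. A call needed a Benjamini-Hochberg adjusted p under 0.05 over all genes and a change of at least 1 on the log2 scale. Of 8148 genes in the control arm, 20.6% rose and 11.4% fell. Of the 6 members tested there, Gata3 rose by 4.97 (SE 0.34, adjusted p = 1.78e-15), Elf3 by 5.52 (SE 0.52, adjusted p = 1.81e-11) and Cdx2 by 4.21 (SE 0.51, adjusted p = 6.03e-09). Tead4 fell by 1.29 (SE 0.46, adjusted p = 0.0207). Tfap2c changed by -0.19 (adjusted p = 0.76) and Klf5 by -0.62 (adjusted p = 0.224), and neither passed. Gata3, Cdx2 and Elf3 passed the filter only through the morulae, where they were higher, so their place among the tested genes is no support. With no filter on low values their adjusted p in limma was 1.11e-14, 2.95e-08 and 1.47e-10. The log2(TPM + 1) scale understates the rise of genes near 0.

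In the heat arm 18.6% of 8430 genes rose and 14.8% fell. Cdx2 rose by 4.85 (SE 0.38, adjusted p = 2.29e-14), Gata3 by 4.85 (SE 0.33, adjusted p = 3.31e-16) and Elf3 by 4.83 (SE 0.52, adjusted p = 2.3e-10). Here Gata3 and Cdx2 passed the filter only through the morulae. With no filter the adjusted p in limma was 5.03e-15 for Gata3, 3.72e-13 for Cdx2 and 3.17e-09 for Elf3. Tead4 (-0.58, adjusted p = 0.222), Tfap2c (-0.71, adjusted p = 0.0903) and Klf5 (-0.28, adjusted p = 0.577) did not pass. The difference between the arms' stage changes was tested as an interaction over all 77 embryos and 8689 genes, and no gene passed (458 at an unadjusted p under 0.05, 5.27%). For Tead4 the interaction was 0.71 (SE 0.62, adjusted p = 0.9998), so the call in 1 arm and not the other is not shown to be a difference between arms.

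The median change of all genes was 0.18 in the control arm and 0.02 in the heat arm, and 0.28 and 0.25 after median-ratio scaling, which turned the heat-arm calls from 1566 higher and 1245 lower to 2023 and 892. Gata3, Cdx2 and Elf3 rose under both scalings, and the sign of Klf5 in the heat arm turned to 0.0016. With that number of detected genes entered as a covariate, calls were 792 higher and 2395 lower in the control arm and 730 and 2665 in the heat arm. Under that covariate Tfap2c (-1.73 and -2.45), Klf5 (-1.96 and -1.96) and Tead4 (-2.80 and -2.46) all fell in both arms, and Gata3, Cdx2 and Elf3 still rose. The median change of all genes was then -0.45 in the control and -0.55 in the heat arm. Morulae had more detected genes than 4-cell embryos, so stage and covariate cannot be fully told apart, and these falls are no separate result. Without control morulae 19, 21 and 22 the control arm had 1314 genes higher and 1142 lower, and the same 4 members were called.

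Counted as embryos above 0 TPM, with Fisher's exact test adjusted over all genes, 10.3% of 16659 genes were found in more morulae than 4-cell embryos in the control arm and 12.3% of 17473 in the heat arm. Eomes was found in more morulae in both arms (adjusted p = 0.000701 in control and 0.000199 in heat), and so was Cdx2 (adjusted p = 0.000302 and 0.00435). Elf3 passed in the control arm (adjusted p = 0.0306) and not in the heat arm (adjusted p = 0.324), where 15 of 18 4-cell embryos already held it. Gata3 (adjusted p = 0.0214) and Gata2 (adjusted p = 0.0357) passed in the heat arm and not in the control arm (adjusted p = 0.0679 and 0.273), and these differences between arms were not tested. At a limit of 1 TPM, Eomes did not pass in either arm (adjusted p = 0.143 in control and 0.0523 in heat), and Gata2 reached 1 TPM in no embryo.

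Genes of the surrounding pathways were followed as lists. Of 16 tested genes of trophectoderm epithelium in the control arm, 13 rose and none fell, with a median change of 2.51, and in the heat arm 14 of 17 rose, with a median of 2.21. Of all genes, 20.6% rose and 11.4% fell in the control arm, and 18.6% rose and 14.8% fell in the heat arm. The keratin Krt8 went from a median of 0.19 to 90.7 TPM in control embryos (log2 change 6.27, adjusted p = 1.54e-14), its partner Krt18 from 1.49 to 186 TPM (5.60, adjusted p = 1.75e-12) and Krt7 from 0 to 4.02 TPM (1.73, adjusted p = 0.00116). In this arm Krt8 and Krt7 passed the filter only through the morulae. Of the Hippo genes 0 of 11 were called in the control arm (median -0.22) and 1 of 12 in the heat arm (Amot, a Hippo scaffold, which rose). Among these Yap1 changed by -0.59 in control embryos, with an adjusted p of 0.0305 and a size under the limit of 1, Wwtr1 by 0.28 and Lats2 by -0.52.

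Other transcription factors of trophoblast went both ways. In the control arm Id2, an inhibitor of helix-loop-helix factors, rose by 3.63 (adjusted p = 2.44e-10) and Klf6 also rose, whereas Hand1, a factor of later trophoblast, fell by 1.93 (adjusted p = 0.00538), as did Grhl2 and Sp6, of 9 tested, and Esrrb changed by -0.99, just under the limit. Of 14 pluripotency genes 4 rose and 3 fell in the control arm, where 20.6% of all genes rose and 11.4% fell, so these counts lie near the share of all genes. Among them were Pou5f1 up by 1.28 (adjusted p = 0.00213), Nanog up by 3.62 (adjusted p = 1.75e-09) and Sall4 at -0.23. With the detected-gene covariate Pou5f1 was at 0.14 and Krt7 at 0.98, and neither was called. Of 4 genes of primitive endoderm, Dab2 rose and Gata4 fell (-2.47, adjusted p = 4.64e-11), and Gata6 (0.70, adjusted p = 0.12) and Fgfr2 (-0.33) did not pass. In the control arm Id2 and Dab2 passed the filter on low values only through the morulae, and Gata4 only through the 4-cell embryos. Each was higher in the stage that took it past the filter, so its place among the tested genes is no support.

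**Figure D2:**
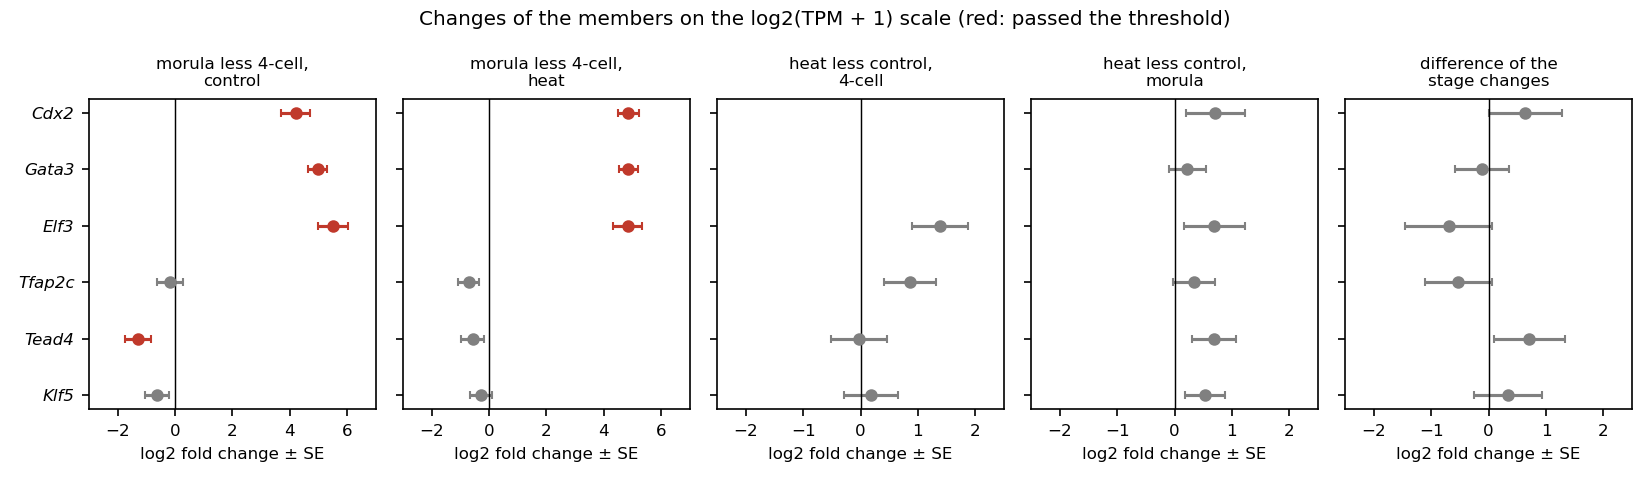
Log2 fold change of the 6 members that passed the filter on low values, with its standard error, in 5 comparisons on the log2(TPM + 1) scale; red points passed the threshold of the comparison. Gata3, Cdx2 and Elf3 lie between 4.21 and 5.52 in both stage comparisons, and no member is red in the heat comparisons or in the difference between the stage changes; members with no point were not tested there.

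Between paternal groups no member passed the test at either stage. At the 4-cell stage 0 of 7322 genes passed (842 at an unadjusted p under 0.05, 11.5%), and in morulae 0 of 7897 (478, 6.05%). A difference that did not pass is not shown to be 0, and each is given with its standard error.

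Among 4-cell embryos Elf3 was 1.39 higher in heat embryos (SE 0.49, unadjusted p = 0.00754, adjusted p = 0.379 with limma), and 12 of 18 heat against 4 of 16 control embryos held it at 1 TPM or more (Fisher's exact test, p = 0.0204, adjusted p = 1). Of the 7322 genes, 9.98% were higher and 1.52% lower at an unadjusted p under 0.05, and the median difference of all genes was 0.26. Elf3 passed the filter on low values only through the heat group, where it was the higher, so its place among the tested genes is no support, and with no filter its adjusted p was 0.697. With the detected-gene covariate Elf3 was 1.00 higher (adjusted p = 0.717). Tfap2c was 0.86 higher (SE 0.45, adjusted p = 0.44), Klf5 0.19 (SE 0.47) and Tead4 -0.02 (SE 0.48). The sign of Klf5 turned to -0.05 with median-ratio scaling and to -0.42 with the covariate.

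In morulae all 6 members tested had a higher mean in heat embryos, as did 67.8% of all genes, but by less than the spread between embryos. The median difference of all genes was 0.13. The members varied together between embryos, so they are not separate results. Cdx2 was 0.71 higher (SE 0.51, adjusted p = 0.805), Elf3 0.69 (SE 0.53, adjusted p = 0.809), Tead4 0.68 (SE 0.38, adjusted p = 0.795), Klf5 0.53 (SE 0.35, adjusted p = 0.803), Tfap2c 0.34 (SE 0.37, adjusted p = 0.844) and Gata3 0.22 (SE 0.32, adjusted p = 0.876). The ranges of the groups overlapped for every member, and 15 of 21 heat morulae were above the control median of Cdx2. Heat morulae had more detected genes by median, and with that number as a covariate Cdx2 was at 0.04, Elf3 at -0.08, Gata3 at -0.22 and Tfap2c at -0.11, with Tead4 and Klf5 at 0.22 each. Without control morulae 19, 21 and 22 Cdx2 was at 1.21, Elf3 at 1.14, Gata3 at 0.59 and Tfap2c at 0.70, and 0 of 7762 genes passed (1730 at an unadjusted p under 0.05). Those 3 controls were chosen for their high Cdx2, and heat morula 21, also above 200 TPM, was kept, so the choice itself fixed that the differences of Cdx2 and of genes that follow it would grow.

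Single morulae of 1 group differed far more than the groups did, and they differed in the same direction for Cdx2, Elf3, Gata3, Tfap2c and Tead4. Over the 10 pairs among these 5 members, Pearson r of log2(TPM + 1) ran from 0.75 to 0.92 in control morulae (n = 22) and from 0.70 to 0.97 in heat morulae (n = 21). Klf5 was more loosely tied to them, with r between 0.43 and 0.71 in control and between 0.42 and 0.66 in heat morulae. Eomes had r between 0.03 and 0.44 with the other 6 members, and its low level limits what its r can show.

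By Pearson r the closest pair was Cdx2 and Elf3. By Spearman's rho this held in heat morulae, whereas in control morulae Tead4 and Gata3 were the closest, at 0.95. In control morulae r was 0.92 and Spearman's rho 0.87, and in heat morulae 0.97 and 0.97, each with a permutation p of 1e-05, the smallest that 100000 resamples can give. Without the 2 morulae farthest from the median of Cdx2, r was 0.90 and 0.96. Elf3 reached at most 202 TPM in the 26 morulae at 50 TPM of Cdx2 or less (median 35.5 TPM), ran from 209.23 to 546.12 TPM in the 13 morulae above 50 and up to 200 TPM of Cdx2, and from 409.67 to 678.7 TPM in the 4 above 200.

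Cdx2 and Gata3 had r = 0.90 in control (rho 0.90, permutation p = 1e-05 for both) and r = 0.83 in heat morulae (rho 0.84, permutation p = 3e-05 and 2e-05). Cdx2 and Tfap2c had r = 0.88 and 0.87 (rho 0.85 and 0.89, permutation p = 1e-05 for all). Cdx2 and Tead4 had r = 0.81 and 0.75 (rho 0.88 and 0.78, permutation p at most 0.00014). In all, 74 pairs of members were computed over the 4 groups, and the test adjusted over all genes is given next. Without the 4 morulae above 200 TPM of Cdx2, r among the 5 members ran from 0.71 to 0.92 in control and from 0.68 to 0.97 in heat morulae.

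**Figure D3:**
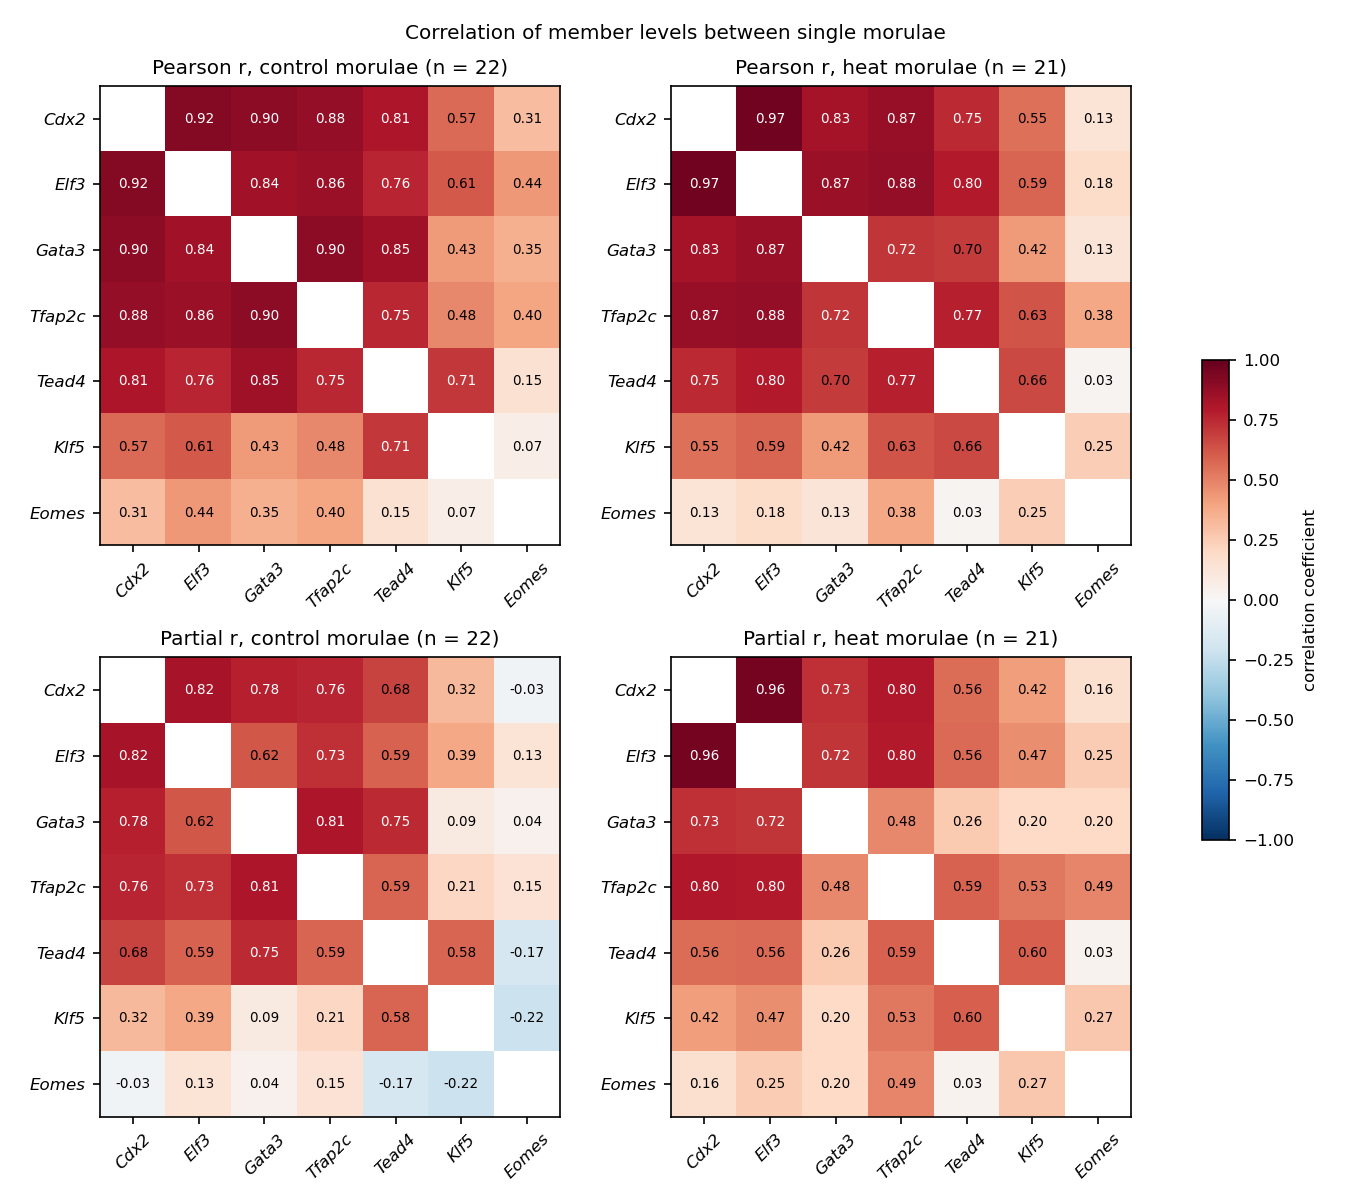
Correlation of log2(TPM + 1) between members over single morulae, control on the left and heat on the right; the upper panels show Pearson r and the lower panels the partial r after the number of detected genes was taken out of both genes. The 5 members at the upper left have r of at least 0.70 in both groups, Klf5 and Eomes have lower values, and the lower panels are paler, with partial r among the 5 from 0.59 to 0.82 in control and from 0.26 to 0.96 in heat morulae.

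How far this sets the members apart from other genes was read from a limma fit of every gene against each member's level, with paternal group as a term, over the 43 morulae. Most genes moved with Cdx2, as 64% of 7896 genes had a positive and 7.59% a negative slope at an adjusted p under 0.05, and the median gene had r = 0.50 with Cdx2 once group means were removed. All 5 other members tested were positive, with slopes of 0.98 for Elf3 (SE 0.06, adjusted p = 5.55e-19), 0.62 for Tfap2c (SE 0.06, adjusted p = 2.2e-13), 0.58 for Tead4 (SE 0.07, adjusted p = 5.07e-10), 0.55 for Gata3 (SE 0.05, adjusted p = 1.78e-13) and 0.37 for Klf5 (SE 0.08, adjusted p = 0.00013). A slope is the log2 change of the gene per log2 unit of Cdx2. Being called is therefore no mark of the members, and the order among genes says more. By r over the 43 morulae Elf3 was 5th of 7896 genes (r = 0.94), Tfap2c 301st (0.87), Gata3 306th (0.87), Tead4 1137th (0.79) and Klf5 3523rd (0.55).

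**Figure D4:**
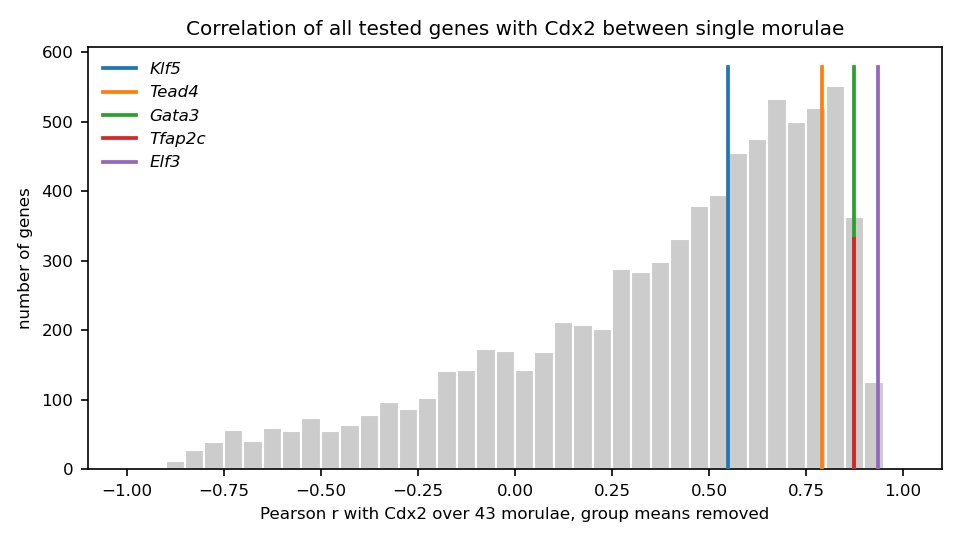
Number of genes by Pearson r with Cdx2 over the 43 morulae after each group's mean was removed, with vertical lines for 5 members (line heights have no meaning). The bulk of the 7896 genes lies to the right of 0, Elf3 is at the far right at 0.94, Gata3 and Tfap2c lie together at 0.87, and Klf5 lies near the middle of all genes at 0.55.

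With each of the other members as the covariate the background was alike, at 61.4% positive for Tead4, 64.2% for Gata3, 65.4% for Elf3 and 66.2% for Tfap2c, and lower at 38% for Klf5. All 30 ordered pairs among the 6 members were called positive, and 4 of them, all with Klf5, were lost with the detected-gene covariate. The members' levels also followed the number of detected genes, with r from 0.52 (Klf5) to 0.81 (Elf3) in control and from 0.40 (Klf5) to 0.77 (Gata3) in heat morulae. With that number as a covariate, 48.7% of genes were positive with Cdx2, Elf3 was 6th in order by the test (adjusted p = 4.12e-12), and Gata3, Tfap2c and Tead4 stayed called (adjusted p at most 4.02e-05), with Klf5 at an adjusted p of 0.0255. The calls lost were Klf5 on Gata3 (adjusted p = 0.423) and, with Klf5 as the covariate, Gata3 (0.587), Cdx2 (0.0708) and Tfap2c (0.0998). After median-ratio scaling 2565 genes were positive and 1818 negative with Cdx2, against 5051 and 599 before it. Elf3, Tfap2c, Gata3 and Tead4 were still called and Klf5 was not (slope 0.17, adjusted p = 0.20), and the slope of Klf5 on Gata3 turned to -0.0076.

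No difference in slope between the paternal groups passed the test. No gene differed in its slope on Cdx2 between heat and control morulae (265 of 7896 at an unadjusted p under 0.05, smallest adjusted p 0.334), nor in its slope on any of the 5 other members (221 to 681 at an unadjusted p under 0.05). Elf3 had slopes on Cdx2 of 0.91 in control and 1.10 in heat morulae, with a difference of 0.19 (SE 0.12, unadjusted p = 0.109). Gata3 had 0.55 and 0.54, and Tfap2c 0.62 and 0.62.

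Klf5 departed from the other members in the morulae with the most Cdx2. Its median was 70.6 TPM in the 26 morulae at 50 TPM of Cdx2 or less, 221 TPM in the 13 above 50 and up to 200 TPM, and 50.7 TPM in the 4 above 200 TPM. In those 4 it was 58.54, 42.90 and 72.64 TPM in control morulae 19, 21 and 22 and 34.59 TPM in heat morula 21. All 4 were below the lowest of the 13 morulae between, at 90.05 TPM. The same 4 embryos held Gata3 from 150.67 to 280.82 TPM and Tead4 from 64.71 to 66.97 TPM, at or near the top of their ranges.

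A term for the square of Cdx2, added after this shape was seen, had a coefficient of -0.19 for Klf5 (SE 0.04, adjusted p = 0.00113 over all genes), against 2.1% of genes with a negative and 13.2% with a positive coefficient. By that test Klf5 was 7th most negative of 7896 genes, but 16th with a pseudocount of 0.1 and 101st with median-ratio scaling, where 528 genes were negative against 166 before it. In the unscaled fit Elf3 (0.03), Gata3 (0.05), Tfap2c (0.04) and Tead4 (-0.07) did not pass. The bend rested on the 4 embryos, since without them the coefficient was -0.05 (adjusted p = 0.955), and among the heat morulae alone, where 1 of them lies, it was -0.23 (adjusted p = 0.86). Between Klf5 and Cdx2, r was 0.57 in control and 0.55 in heat morulae (rho 0.55 and 0.51, permutation p at most 0.019), and 0.88 and 0.75 without those embryos. Without them Klf5 was 375th of 7896 genes by its test against Cdx2 (slope 0.65, adjusted p = 6.29e-10), in place of 3327th with them. These 4 embryos, high in Cdx2 and low in Klf5, were left out after the bend was seen. The choice itself fixed that r, slope and place would rise, so the rise is no support for a closer tie.

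**Figure D5:**
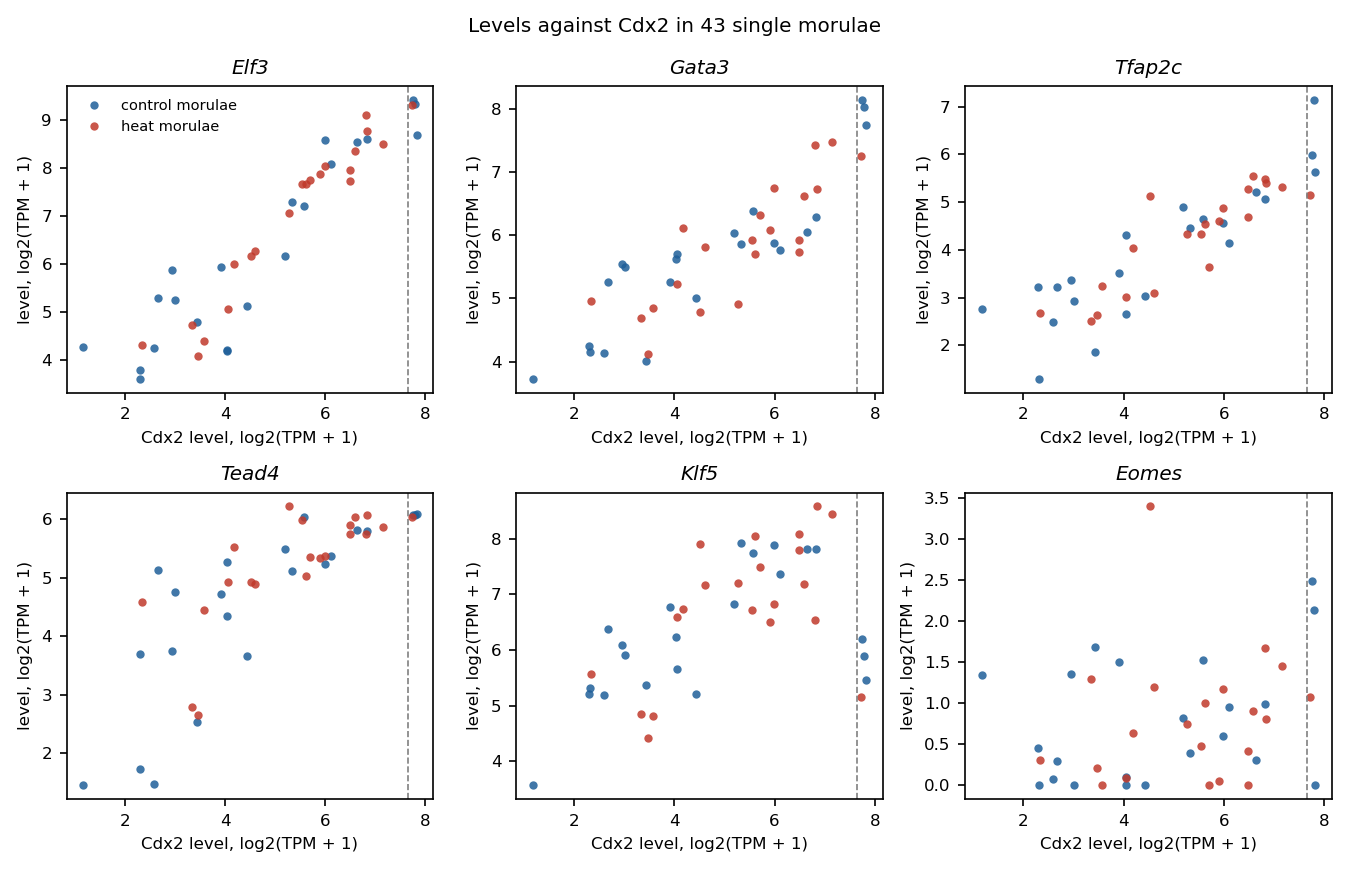
Level of 6 members against that of Cdx2 in the 43 morulae, both as log2(TPM + 1); each point is 1 morula, blue for control and red for heat, and the dashed line marks 200 TPM of Cdx2. Elf3 has the highest Pearson r with Cdx2 in both groups, at 0.92 and 0.97, Klf5 rises up to the line and is at 34.59 to 72.64 TPM in the 4 morulae beyond it, and Eomes shows little order.

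Among the lists, 15 of 16 genes of trophectoderm epithelium had a positive slope on Cdx2 in morulae and none a negative one, with a median slope of 0.40 against 0.24 for all genes. Krt8 had a slope of 0.80 (SE 0.07, adjusted p = 1.08e-13) and Krt18 of 0.53. Of the Hippo genes 8 of 12 were positive and 1, Vgll4, a TEAD cofactor that competes with YAP1, was negative, with Wwtr1 at 0.57 and Yap1 at 0.11 (adjusted p = 0.0718). Of 8 other trophoblast factors 5 were positive, and Id2 was at -0.03 and Esrrb at 0.04. Pluripotency genes were positive in 7 of 14, with Nanog at 0.46 (adjusted p = 9.57e-10) and Pou5f1 at 0.34, and Dppa3, a maternal factor, was negative. Of 3 genes of primitive endoderm Gata6 (0.15) and Dab2 (0.25) were positive, and Fgfr2 (0.04) was not called. Of all genes, 64% were positive.

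The genes outside the members with the highest r to each member over the 43 morulae, among 4556 genes at a median of 5 TPM or more, were as follows. For Cdx2 they were Cct3 (0.95) and Cct7 (0.94), subunits of the CCT chaperonin, and Mcrs1 (0.94). For Elf3 they were Cct7 (0.97), the claudin Cldn4 (0.97) and Noc4l (0.97). For Gata3 they were Rab7 (0.93), Fkbp4 (0.92) and Slc30a6 (0.91), and for Tead4 Tor2a (0.97), Sapcd2 (0.96) and Csnk1e (0.96). For Tfap2c they were Atp5a1 (0.93), Eif3d (0.93) and Cstf1 (0.93), and for Klf5 Tmem248 (0.86), Fnta (0.86) and Rragd (0.85). Over all pairs of the 7897 genes the median r was 0.21, and 0.0323% of pairs had an r at or above that of Cdx2 and Elf3. That pair was picked as the closest of the members by r, and the median r of all genes with Cdx2 was higher, at 0.50. The share is thus a description and no test.

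The members present at high level in 4-cell embryos also varied together there, though less closely for Tead4 and Tfap2c in heat embryos. That pair had r = 0.83 in control embryos (rho 0.88, permutation p = 6e-05 and 3e-05). In heat embryos its r was 0.49 (rho 0.46, permutation p = 0.0374 and 0.0563). Klf5 and Tead4 had r = 0.87 in control embryos (rho 0.84, permutation p = 2e-05 and 7e-05) and 0.65 in heat embryos (rho 0.75, permutation p = 0.00381 and 0.00068). Klf5 and Tfap2c had r = 0.84 (rho 0.76, permutation p = 8e-05 and 0.00118) and 0.76 (rho 0.69, permutation p = 0.00043 and 0.00226). Elf3, still low, had r = 0.59 and 0.63 with Klf5 (rho 0.73 and 0.61, permutation p at most 0.0164). Without the 2 embryos farthest from the median of the first gene of the pair, r was 0.88 and 0.82 for Tead4 and Klf5, 0.75 and 0.67 for Tfap2c and Klf5, and 0.38 and 0.60 for Elf3 and Klf5. For Tead4 and Tfap2c it was 0.94 and 0.79.

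In the fit over the 34 embryos 27.8% of 7321 genes were positive with Tead4, 35.9% with Tfap2c, 31.1% with Klf5 and 1.09% with Elf3. Klf5 had a slope on Tead4 of 0.74 (SE 0.11, adjusted p = 9.98e-06) and on Tfap2c of 0.87 (SE 0.11, adjusted p = 1.22e-07). Tfap2c on Tead4 and Tead4 on Tfap2c passed too (adjusted p = 0.000439 and 0.000135), but not in heat embryos alone (adjusted p = 0.18 and 0.0722). Elf3 passed with Tead4 (adjusted p = 0.00477) and Klf5 (adjusted p = 0.00121) and not with Tfap2c (adjusted p = 0.0541). These levels followed the number of detected genes, with r of 0.94 for Klf5, 0.84 for Tead4 and 0.81 for Tfap2c in control embryos and 0.71, 0.58 and 0.72 in heat embryos. With that number as a covariate no pair of members passed at the 4-cell stage, and the genes called fell to 119 with Tead4, 391 with Tfap2c, 17 with Klf5 and 0 with Elf3.

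The spread between embryos was compared as the absolute distance from the group median on the log2 scale. In morulae no gene passed (483 with less and 15 with more spread in heat embryos at an unadjusted p under 0.05). The mean distance was 1.69 in control and 1.18 in heat morulae for Cdx2 (adjusted p = 0.674), 1.14 and 0.68 for Tead4 (adjusted p = 0.674), and 0.91 and 0.95 for Klf5 (adjusted p = 0.964). At the 4-cell stage 5 of 7322 genes passed (0.0683%), none of them a member.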

How the data were processed

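Polyadenylated RNA of 77 single embryos was sequenced after Nextera XT library preparation, per the labels' protocols. The authors deposited TPM values for 23845 genes; the submitters' processing notes name Trimmomatic, Bowtie2, RSEM and the mm10 build, with versions and roles not given in the sources used here. TPM sums to 1000000 per embryo and keeps no depth, so precision was judged from the spread between embryos alone. The sperm small RNA of the series was not used here.

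Genes at 1 TPM or more in at least 50% of the embryos of a compared group entered limma 3.58.1 (R 4.3.3) on the log2(TPM + 1) scale with a mean-variance trend, each comparison on its own groups, two-sided, with Benjamini-Hochberg adjustment over all genes. Of the 8 members, 6 passed this filter in both stage comparisons and in morulae, and 4 (Tead4, Tfap2c, Klf5, Elf3) at the 4-cell stage; the others were tested by detection, and by level only with no filter. Co-variation was a limma fit on a member's level plus group. Permutation tests used 100000 resamples (Python 3.11.15, SciPy 1.17.1). The fits were tested on simulated data in which genes were drawn independently, unlike these embryos, where genes vary together. A paternal difference of 1 on the log2 scale was recovered for 26.8% of changed genes at the 4-cell stage and 56.6% in morulae. A difference of 2 was recovered for 78.4% and 93.8%, and a slope of 0.5 on Cdx2 in morulae for 86.8%.

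The members, lists and comparisons were chosen with earlier results of these data known. Named genes are all members, the first 3 genes of each list that pass the filter, in list order, and the 3 genes most like each member; called genes named beside a list's count were named after their values were seen. The marker lists were those of trophectoderm, inner cell mass, oocyte, cumulus, sperm, 4-cell and morula. Coordinates and promoters are from RefSeq, GRCm38.p6. Alternatives covered the pseudocount, filter, scaling, covariates, weights, left-out embryos and a replicate block.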

Additional observations from a re-analysis of the deposited data

How the results depend on the processing

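Of the counts and calls compared, 152 kept their side of the threshold or stayed within 1.5 times the value reported and 33 moved. Of single genes, 755 values kept their call and direction, 43 lost a call, 17 gained one and 19 changed sign.

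Sign changes were found for Wwtr1 (-1.24 in the control arm and -1.29 in the heat arm), Gata6 (-0.72) and Esrrb (0.061) between stages with the detected-gene covariate; for Esrrb in the heat arm also with a pseudocount of 0.1 (0.35), median-ratio scaling (0.16) and the replicate block (0.021); and for Klf5 with median-ratio scaling (0.0016). Between paternal groups they were Klf5 at the 4-cell stage (-0.42 with the covariate, -0.046 with scaling), Tead4 (0.14 with array weights) and, in morulae with the covariate, Gata3 (-0.22), Elf3 (-0.083) and Tfap2c (-0.11). The interaction of Gata3 was 0.25 without the 3 control morulae. Co-variation of Klf5 on Gata3 and Gata3 on Klf5 was -0.0076 and -0.0035 with scaling, and of Elf3 on Tfap2c and Tfap2c on Elf3 at the 4-cell stage -0.046 and -0.021 with the covariate.

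Counts that moved were these. With the covariate 6 members were called between stages in the heat arm. In a fit of all 77 embryos, 26 genes were called between paternal groups at the 4-cell stage and 2 in morulae, none of them a member. In morulae, genes that moved with Tead4 were 3368 with the covariate, 2994 in heat embryos alone and 3464 with scaling; with Gata3 3216 in heat embryos and 3701 with scaling; with Cdx2 3615 and with Elf3 3755 in heat embryos; and with Klf5 1231 with the covariate, 1967 in control and 1291 in heat embryos, and 401 with scaling. At the 4-cell stage they were 119, 269 in heat embryos and 1342 with scaling for Tead4; 391, 1595 in control and 1599 in heat embryos for Tfap2c; 17, 700 in heat embryos and 1586 with scaling for Klf5; and for Elf3 497 with a pseudocount of 0.1, 0 with the covariate, 0 in control and 3 in heat embryos, 16 with scaling and 13 without the 2 farthest embryos. Spread at the 4-cell stage gave 0 genes with a pseudocount of 0.1. Detection at 1 TPM gave 1149 genes in the control and 1241 in the heat arm, with 2 members in the latter. Fewer embryos or genes enter some of these fits, and otherwise the cause was not tested.

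With a replicate block, which uses embryos whose number occurs in both groups, 2616 genes were called between stages in the control arm, 2765 in the heat arm and 0 in the heat comparisons and the interaction, and no call of a member changed. Same-numbered embryos had correlations from -0.45 to 0.74 in the heat comparison of morulae, with a median of -0.03. In the stage comparisons of the control and heat arms 4 of 16 and 4 of 18 pairs were over 0.1. In the heat comparisons at the 4-cell stage and in morulae 2 of 16 and 6 of 21 were. Such values cannot tell whether the numbers pair embryos, and no label gives the parents. Precision is limited by unknown depth, by values near 0 for Gata2 and Eomes, and by parents that are not known.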

Other observations

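Beyond the members, the 4 morulae above 200 TPM of Cdx2 stood above all other morulae in Nanog, and not in Pou5f1 or Sox2. Nanog, a factor of the inner cell mass, was at 236.26 to 297.46 TPM in them, above all 13 morulae between 50 and 200 TPM of Cdx2, the highest of which had 178.58 TPM, and above all 26 at 50 TPM or less, at most 124.51 TPM. Pou5f1 was at 1436 to 1665 TPM, within the range of the 13 morulae between. Its median of 1485 TPM was below the 1689 TPM of the 13 and above the 1159 TPM of the 26, which reached 1842 TPM. Sox2 was low throughout, with a median of 0.275 TPM in the 4, 1.27 TPM in the 13 and 0.99 TPM in the 26. Krt8 was at 602.9 to 1024 TPM and Krt18 at 317.08 to 524.9 TPM, both within the range of those 13. The medians of Krt8 were 692 TPM in the 4, 311 TPM in the 13 and 60.8 TPM in the 26. Those of Krt18 were 403, 428 and 167 TPM. Obox6, a homeobox gene abundant at the 4-cell stage, had a median of 386 TPM in the 4, 269 TPM in the 13 and 85.5 TPM in the 26. These embryos were picked by their Cdx2 level after it was seen, so the values are given with no test.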
